A study of Mus musculus with 10 samples.

Results

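The Zic genes Zic1, Zic4, Zic2 and Zic5 were examined in the cortical hem (CH), the signaling center at the telencephalic dorsal midline that lies next to the hippocampal field and produces Wnt and Bmp ligands and Cajal-Retzius (CR) cells. They were found in the table by gene symbol, and are 4 of its 52227 genes. The CH of 5 wild-type and 5 Lmx1a-/- mouse embryos was isolated by laser capture at embryonic day 13.5 (e13.5), and the RNA of each embryo made 1 library, so n = 5 per genotype throughout. The Lmx1a-/- embryos were homozygous for drJ, a null allele of the LIM-homeodomain gene Lmx1a in every cell of the animal, and carried no other allele or treatment. All mice shared a mixed background of C57Bl6, FVB and CD1. The study used both sexes, but in these libraries sex was almost wholly bound up with genotype (below). The tissue of all sections of an embryo was pooled, and the borders of the CH were read from Lmx1a immunostaining of alternate sections. Between 19145952 and 36462780 reads per library were counted on genes.

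Zic proteins are C2H2 zinc finger transcription factors related to the Gli effectors of Hedgehog signaling. They are made in the dorsal neural tube and in the dorsal midline of the forebrain, where they act in midline formation and hold progenitors in proliferation, and some of them are also made in meninges, septum and thalamic eminence. Zic2 is known for its role in holoprosencephaly, and the joint loss of Zic1 and Zic4 for its role in Dandy-Walker malformation of the cerebellum. The genes lie in head-to-head pairs, so that both members of a pair are transcribed away from a shared stretch of DNA.

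In GRCm38, Zic1 is at chr9:91358058-91365810 on the minus strand and Zic4 at chr9:91362413-91389348 on the plus strand. Some annotated isoforms of Zic4 start inside Zic1, so the genes overlap by 3398 bp, of which 60 bp are exonic in both. Zic5 is at chr14:122456795-122465677 on the minus strand and Zic2 at chr14:122475435-122479852 on the plus strand. The gap of 9757 bp between them holds the noncoding gene 2610035F20Rik. The main RefSeq starts of Zic1 and Zic4 lie 3204 bp apart, and the promoters at these starts are shown because the genes of this pair gave different results below. Each sequence runs 5′ to 3′ along its gene from 250 bases before the RefSeq start to 50 bases after it (GRCm38.p6). Capitals mark a Tcf/Lef core.
Zic1 promoter, chr9:91365719-91366018, minus strand: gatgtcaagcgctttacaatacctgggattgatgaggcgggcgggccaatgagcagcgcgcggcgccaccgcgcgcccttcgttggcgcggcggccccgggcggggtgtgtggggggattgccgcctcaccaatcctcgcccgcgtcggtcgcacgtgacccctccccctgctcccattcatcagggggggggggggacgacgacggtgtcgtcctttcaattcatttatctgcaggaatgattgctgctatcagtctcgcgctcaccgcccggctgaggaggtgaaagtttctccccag
Zic4 promoter, chr9:91368722-91369021, plus strand: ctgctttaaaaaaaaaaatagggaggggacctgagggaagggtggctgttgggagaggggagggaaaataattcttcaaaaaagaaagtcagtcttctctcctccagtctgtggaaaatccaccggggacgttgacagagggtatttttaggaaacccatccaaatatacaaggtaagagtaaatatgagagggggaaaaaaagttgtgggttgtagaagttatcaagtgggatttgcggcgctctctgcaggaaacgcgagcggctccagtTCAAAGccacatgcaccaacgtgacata
The Zic1 promoter was rich in G and C (65.3%) and held 31 CpG dinucleotides, against 46.0% and 8 in the Zic4 promoter. Over 32851 RefSeq promoters the medians were 52.7% and 7. On both strands the promoters of Zic1, Zic4 and Zic5 were searched for the homeodomain core TAATTA, the Tcf/Lef core CTTTGA and the Zic core CAGCAGG. The single match was CTTTGA on the reverse strand of the Zic4 promoter, 23 bases after the start. These letters were held by 16.0% of all promoters, TAATTA by 5.3% and CAGCAGG by 10.5%.

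How far the reads of the 4 genes can be told apart was read from their annotated transcripts. Of the stretches of 50 bases in the transcripts of Zic1, 0.723% occurred in a transcript of another gene, against 4.179% for Zic4, 0% for Zic2 and 7.479% for Zic5. Most of those of Zic4 (419 of 433) lie where an unclassified transcript on the other strand, Gm37477, overlaps it, and most of those of Zic5 (361 of 362) occur in the gene Gm12241. The strand setting of the read counting is not given in the sources used here, so reads of Zic4 and of transcripts opposite it cannot be told apart. Gm37477 was itself low, at 0.76 ± 0.388 normalized CPM in wild-type and 1.17 ± 0.196 in Lmx1a-/- libraries (mean ± SD).

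All 4 Zic genes were detected in every library, with 1341 to 11784 reads per gene and library, and all passed the filter of 10 counts in 3 libraries. Zic4 was the member that passed the test between genotypes. Its level in normalized CPM (counts scaled to the library size by TMM) was 89.0, 138, 48.1, 86.8 and 128 in wild-type embryos 1 to 5, and 192, 206, 199, 264 and 197 in Lmx1a-/- embryos 1 to 5. Every Lmx1a-/- embryo was above every wild-type embryo. The mean was 97.9 ± 36 in wild-type and 212 ± 29.6 in Lmx1a-/- embryos (SD), a 2.16-fold higher level with a 95% interval of 1.56 to 3.0. The log2 fold change was 1.11 (SE 0.22), with a false discovery rate (FDR) of 0.0193 in edgeR's quasi-likelihood test across 21664 genes. At the threshold of an FDR under 0.1, 4.02% of all genes tested were called, 1.72% as higher in Lmx1a-/- and 2.29% as lower, so that 1 of 4 Zic genes was called higher and 0 lower. The libraries of the genotypes did not overlap for 1 of the 4 Zic genes, Zic4, and for 4.44% of all genes. By size of the fold change Zic4 was number 90 of the 373 genes called higher. In bulk tissue such as this, a change in the number of cells that make a transcript and a change in the amount per cell cannot be told apart.

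Zic1, its neighbor on the other strand, was the most abundant member and did not pass the threshold. Its level was 280, 324, 183, 203 and 304 normalized CPM in wild-type embryos 1 to 5, and 386, 412, 358, 326 and 255 in Lmx1a-/- embryos 1 to 5. Lmx1a-/- embryos 1 to 4 were above every wild-type embryo, while embryo 5 lay within the wild-type range. The means were 259 ± 62.3 and 347 ± 60.9, with a log2 fold change of 0.43 (SE 0.16), a 95% interval of 0.07 to 0.78, an unadjusted p of 0.0216 and an FDR of 0.208 in the same test.

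Neither gene of the pair on chromosome 14 passed the threshold. Zic2, the holoprosencephaly gene, stood at 107, 121, 64.6, 69.6 and 103 normalized CPM in wild-type embryos and at 78.7, 99.9, 98.2, 66.7 and 50.9 in Lmx1a-/- embryos, in the order of their numbers. The genotypes overlapped, with 4 of 5 Lmx1a-/- embryos inside the wild-type range and embryo 5 below it. The log2 fold change of Zic2 was -0.24 (SE 0.20), with a 95% interval of -0.68 to 0.20 and an FDR of 0.61.

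Zic5, the neighbor of Zic2, stood at 114, 111, 65, 72.6 and 128 normalized CPM in wild-type embryos and at 94.9, 117, 98.1, 138 and 112 in Lmx1a-/- embryos. Here too the genotypes overlapped, and Lmx1a-/- embryo 4 alone was above every wild-type embryo. Its log2 fold change was 0.19 (SE 0.18), with a 95% interval of -0.19 to 0.57 and an FDR of 0.645. These intervals leave room for a change of Zic2 down to 0.625-fold and of Zic5 up to 1.48-fold.

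**Figure D1:**
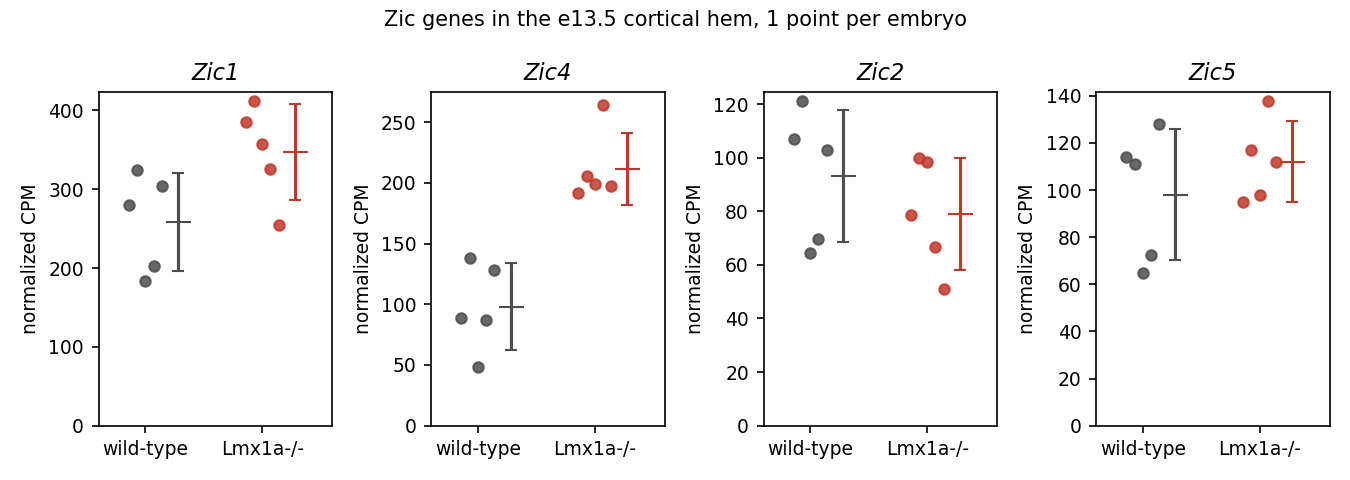
Normalized CPM (y axis, from 0) of Zic1, Zic4, Zic2 and Zic5 in the e13.5 CH, with 1 point per embryo and the mean ± SD beside the 5 embryos of each genotype. The Lmx1a-/- points of Zic4 lie between 192 and 264, above all wild-type points (48.1 to 138), and the genotypes overlap for the other members.

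Levels of different genes can be compared only per length of transcript, and here the length chosen set the order. Per kilobase of all annotated exons, the mean wild-type level was 45.4 ± 10.9 normalized CPM for Zic1, 32.3 ± 8.57 for Zic2, 20.1 ± 5.67 for Zic5 and 9.48 ± 3.48 for Zic4. The ranges of Zic1 and Zic2 overlapped (32.1 to 56.9 and 22.4 to 42.1), as did those of Zic2 and Zic5 (13.3 to 26.2), while the range of Zic4 (4.66 to 13.3) touched that of Zic5. Zic4 has 12 annotated transcripts and 10335 bp of exons in all, against 3891 bp in its longest coding transcript. Per kilobase of that transcript Zic4 stood at 25.2 ± 9.24 in wild-type embryos, above Zic5 at 20.6 ± 5.82, with overlapping ranges. By the same measure the Lmx1a-/- embryos had 62 ± 10.9 for Zic1, 54.4 ± 7.61 for Zic4, 32.3 ± 8.56 for Zic2 and 23.5 ± 3.6 for Zic5. In wild-type embryos Zic4 was thus the third or the fourth member by level, depending on the length. In Lmx1a-/- embryos it was the second or the fourth, with 20.5 ± 2.87 per kilobase of all exons beside 22.9 ± 3.51 for Zic5.

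The make-up of the Zic reads of a library differed between genotypes. Zic4 took 15.1%, 19.8%, 13.4%, 20.1% and 19.3% of the reads of the 4 genes in wild-type embryos 1 to 5, and 25.6%, 24.7%, 26.4%, 33.2% and 32.1% in Lmx1a-/- embryos 1 to 5. Zic2 took 15.5% to 18.1% in wild-type and 8.28% to 13.0% in Lmx1a-/- embryos. Neither range overlapped between genotypes, whereas the share of Zic1 was 47.5% ± 1.86 in wild-type and 46.1% ± 4.68 in Lmx1a-/- embryos. The share of Zic5 was 17.9% ± 1.5 and 15.0% ± 2.57. In sum the 4 genes had 548 ± 146 normalized CPM in wild-type and 750 ± 82.8 in Lmx1a-/- embryos.

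A ratio of 2 genes within a library does not depend on how libraries are scaled, so all 6 pairs were compared by this measure. Reads of Zic1 per read of Zic4 were 3.14, 2.35, 3.79, 2.34 and 2.37 in wild-type embryos 1 to 5 and 2.01, 2.0, 1.8, 1.24 and 1.29 in Lmx1a-/- embryos 1 to 5. The neighbors on chromosome 9 therefore did not change in step. The log2 ratio of Zic1 to Zic4 was lower by 0.75 (coded as -0.75, SE 0.21) in Lmx1a-/- embryos, with a two-sided exact permutation p of 0.00794, which is the smallest this design can give, and 0.0119 after adjustment over the 6 pairs.

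Zic1 and Zic2 came apart although each on its own missed the threshold. Reads of Zic1 per read of Zic2 were 2.62, 2.67, 2.83, 2.92 and 2.95 in wild-type embryos and 4.91, 4.12, 3.64, 4.89 and 5.0 in Lmx1a-/- embryos. The wild-type embryos lay close together, and no Lmx1a-/- embryo came near them. This log2 ratio was higher by 0.68 (SE 0.10) in Lmx1a-/- embryos, with the same exact permutation p of 0.00794 and adjusted p of 0.0119.

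The ratio of Zic4 to Zic2 moved most among the 6 pairs, from 0.745 to 1.25 reads per read in wild-type to 2.03 to 3.96 in Lmx1a-/- embryos, a log2 difference of 1.43 (SE 0.26). The ratio of Zic4 to Zic5 went from 0.741 to 1.24 to a narrow 1.76 to 2.03, a log2 difference of 0.97 (SE 0.16). Both reached an adjusted p of 0.0119 in the exact permutation test, without overlap of the genotypes. The ratios that include Zic4 share its counts, so they are not results separate from its higher level. The ratio of Zic1 to Zic5 (log2 difference 0.22, SE 0.18, adjusted p = 0.262 in the exact test) and that of the chromosome 14 neighbors Zic2 and Zic5 (-0.47, SE 0.24, adjusted p = 0.124) did not pass. In the latter, Lmx1a-/- embryos 4 and 5 stood at log2 ratios of -1.05 and -1.14 and the other 3 between -0.27 and 0, inside the wild-type range of -0.32 to 0.13. Of the Lmx1a-/- embryos these 2 also had the lowest ratios of Zic1 to Zic4 and of Zic1 to Zic5.

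**Figure D2:**
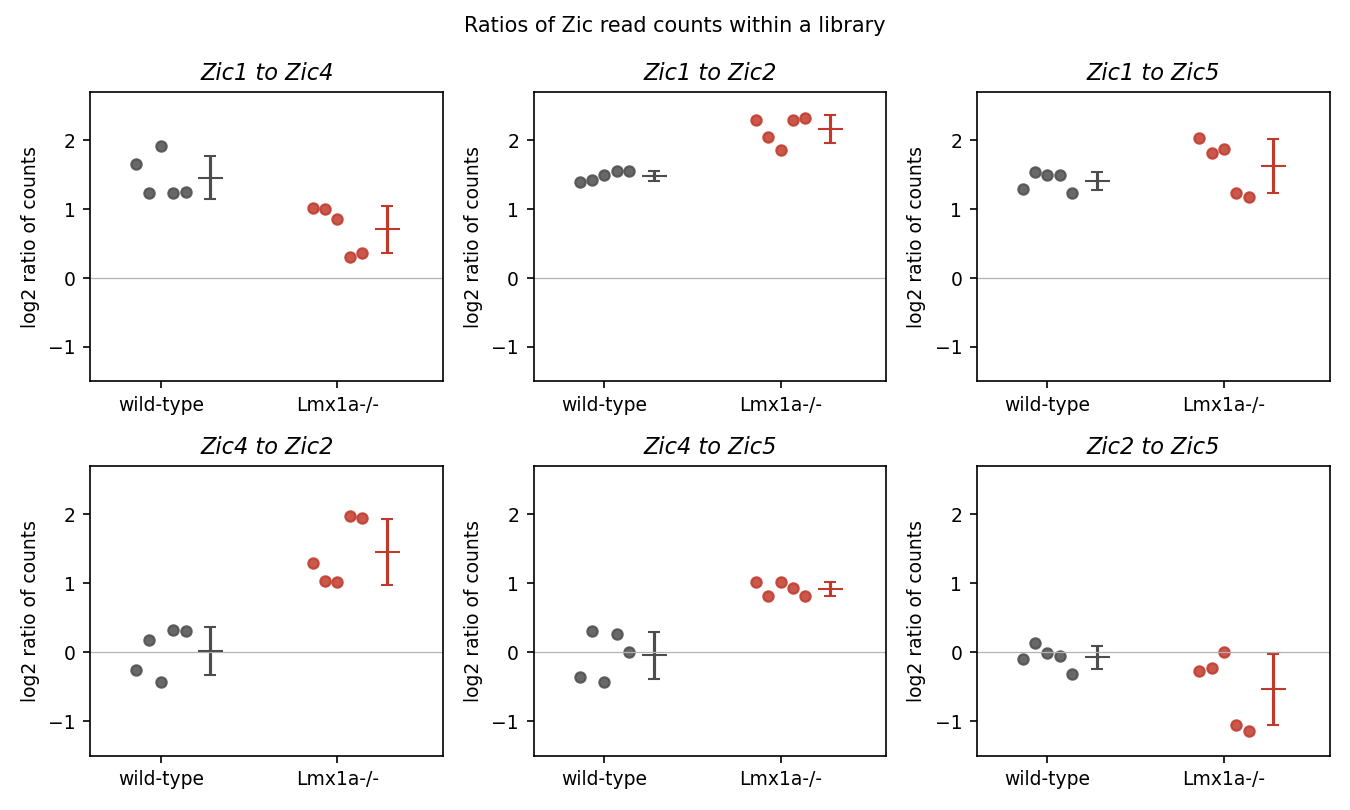
Log2 ratio of read counts within a library (y axis) for the 6 pairs of Zic genes, with 1 point per embryo and the mean ± SD of the 5 embryos of each genotype. The genotypes do not overlap for Zic1 to Zic4, Zic1 to Zic2, Zic4 to Zic2 and Zic4 to Zic5, and they overlap for Zic1 to Zic5 and Zic2 to Zic5.

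The chromosomal surroundings of the 2 pairs were compared next, over every other annotated gene with a base within 500 kb of a Zic start. Of 28 such genes tested, 6 were called higher and 0 lower at an FDR under 0.1, beside 1.72% and 2.29% of all genes tested. All 6 lie on chromosome 9, where 12 genes were tested with a median log2 fold change of 1.53. These counts include genes that passed the filter on low counts through the Lmx1a-/- libraries where they were high. Of the 24 genes that also reach 10 counts in 3 wild-type libraries, 4 were called higher and 0 lower, all 4 among the 9 such genes of chromosome 9 (median 1.09). None of the 16 genes tested on chromosome 14 was called by edgeR's quasi-likelihood test (median 0.05), while 3 of them had an unadjusted p under 0.05 and DESeq2 called 2. On chromosome 9, with the same limit from the filter, 9 of 12 had an unadjusted p under 0.05 in that test. DESeq2 called 6 there, all higher, Gm28652 and Gm36960 among them. Over all 21664 genes tested, 1660 had an unadjusted p under 0.05 in edgeR's test and were higher in Lmx1a-/- embryos, and 1885 were lower. The share of all genes that DESeq2 called is not given here. None of the 12 genes on chromosome 9 codes for a protein in the annotation used, while 8 of the 16 on chromosome 14 do. Whether the surroundings of the pairs differ was not tested beyond these counts.

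The 4 called genes with enough wild-type reads lie past the 3′ end of Zic1, on its strand, and are single-exon transcripts whose class is still to be settled in the annotation (TEC). A730094K22Rik lies nearest, 7104 bp from the end of Zic1, and Gm37040, Gm37457 and Gm37812 follow at 20990, 30209 and 84653 bp. The first 150 bases of the nearest and of the most abundant of them by CPM are shown (GRCm38, minus strand), as these transcripts have no function by which to know them.
A730094K22Rik, chr9:91350804-91350953: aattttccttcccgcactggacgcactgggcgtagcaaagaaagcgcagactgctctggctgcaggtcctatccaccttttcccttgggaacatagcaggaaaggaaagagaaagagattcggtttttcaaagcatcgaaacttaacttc
Gm37457, chr9:91327699-91327848: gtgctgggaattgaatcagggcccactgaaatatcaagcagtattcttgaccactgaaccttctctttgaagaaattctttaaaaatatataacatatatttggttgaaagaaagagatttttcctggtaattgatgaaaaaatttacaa
A730094K22Rik stood at 7.47, 8.57, 3.88, 8.98 and 9.94 normalized CPM in wild-type embryos 1 to 5 and at 20.4, 23.7, 25.6, 24.9 and 28.8 in Lmx1a-/- embryos 1 to 5. Its lowest Lmx1a-/- level was above its highest wild-type level, and it rose 3.19-fold (log2 fold change 1.67, SE 0.21, FDR 0.00157). It ranked 30 among all genes tested by p, ahead of Zic4 at 219.

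Gm37457 stood at 10.5, 17.0, 5.41, 15.4 and 21.7 normalized CPM in wild-type and 40.3, 50.3, 55.5, 53.6 and 50.9 in Lmx1a-/- embryos, again without overlap (log2 fold change 1.85, SE 0.27, FDR 0.00344). Gm37040 stood at 7.43, 19.6, 5.82, 9.34 and 11.6 in wild-type and 22, 36.8, 31.6, 32.2 and 30.4 in Lmx1a-/- embryos (1.51, SE 0.27, FDR 0.0111). Gm37812 stood at 1.68, 2.53, 1.79, 1.76 and 4.28 in wild-type and 7.45, 7.01, 6.68, 7.14 and 7.06 in Lmx1a-/- embryos (1.55, SE 0.27, FDR 0.00859). All 4 transcripts were higher in each Lmx1a-/- embryo than in any wild-type embryo, but they were picked for being called higher in these libraries. Of all genes tested, 4.44% had no overlap between genotypes. Wild-type embryo 3, which had the lowest Zic4, also had the lowest A730094K22Rik, Gm37457 and Gm37040. Other genes lie among the 4 transcripts on the opposite strand and did not pass edgeR's quasi-likelihood test. The lincRNA Gm28652 had a log2 fold change of 1.09 (SE 0.36, unadjusted p = 0.0085, FDR 0.138). It was above every wild-type embryo in 4 Lmx1a-/- embryos, and DESeq2 called it higher. The processed pseudogene Gm18378, between Gm37457 and Gm37812, had -0.50 (SE 0.59, FDR 0.729).

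**Figure D3:**
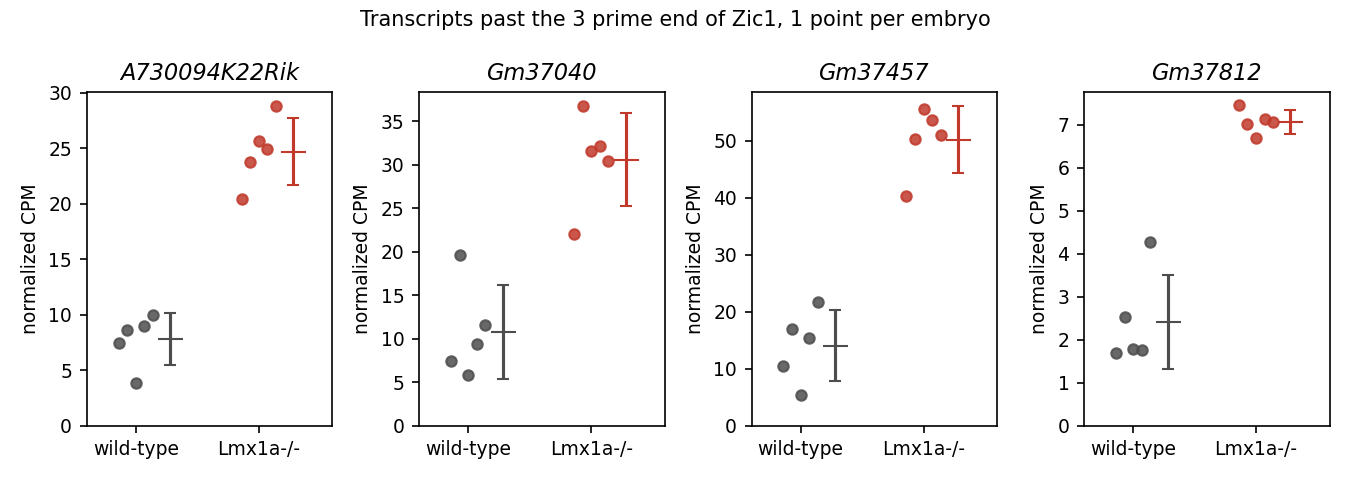
Normalized CPM (y axis, from 0) of 4 unclassified transcripts that lie past the 3′ end of Zic1 on its strand, ordered from the nearest to the farthest, with 1 point per embryo and the mean ± SD of each genotype. In each panel the lowest Lmx1a-/- point is above the highest wild-type point, as for A730094K22Rik with 20.4 against 9.94. The transcripts were picked for being called higher in these libraries.

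The other 2 called genes on chromosome 9 were near the limit of detection. The processed pseudogene Gm29602 had 12 reads in all wild-type and 154 in all Lmx1a-/- libraries, and the TEC transcript Gm37987 had 24 and 142. Gm29602 reached 10 counts in 0 wild-type libraries and Gm37987 in 1, so that both passed the filter through the Lmx1a-/- libraries. Without any 1 of the 10 embryos, Gm29602 stayed past the threshold in 5 of 10 fits and Gm37987 in 3 of 10. The 4 transcripts past Zic1 stayed past it in all 10 fits, as did Zic4.

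The ratios of the 4 transcripts to Zic1 and Zic4 within a library are given as a description, without a test, since these transcripts were chosen for being called higher. Relative to Zic1, A730094K22Rik was 2.44-fold, Gm37457 2.9-fold, Gm37812 2.3-fold and Gm37040 2.26-fold higher in Lmx1a-/- than in wild-type embryos. Relative to Zic4, the values were 1.45-fold, 1.72-fold, 1.36-fold and 1.34-fold in the same order. Per kilobase of exons these transcripts were low beside Zic1 in wild-type embryos. A730094K22Rik stood at 10.5 ± 3.17 normalized CPM and Gm37457 at 5.75 ± 2.56, against 45.4 ± 10.9 for Zic1 and 9.48 ± 3.48 for Zic4. In Lmx1a-/- embryos they stood at 33.4 ± 4.11 and 20.6 ± 2.41, against 61 ± 10.7 for Zic1 and 20.5 ± 2.87 for Zic4.

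On chromosome 14, 2610035F20Rik, the noncoding gene between Zic5 and Zic2, stood at 29.6 ± 7.14 normalized CPM in wild-type and 41.5 ± 6.92 in Lmx1a-/- embryos, with a log2 fold change of 0.48 (SE 0.17), an unadjusted p of 0.0125 and an FDR of 0.166. The coding neighbors Clybl (log2 fold change 0.30), Pcca (-0.25), Tm9sf2 (-0.25), Ubac2 (-0.01), Ggact (0.01) and Tmtc4 (0.01) did not pass the threshold either. Tm9sf2 (unadjusted p = 0.00786) was called by DESeq2, as was 2610035F20Rik.

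**Figure D4:**
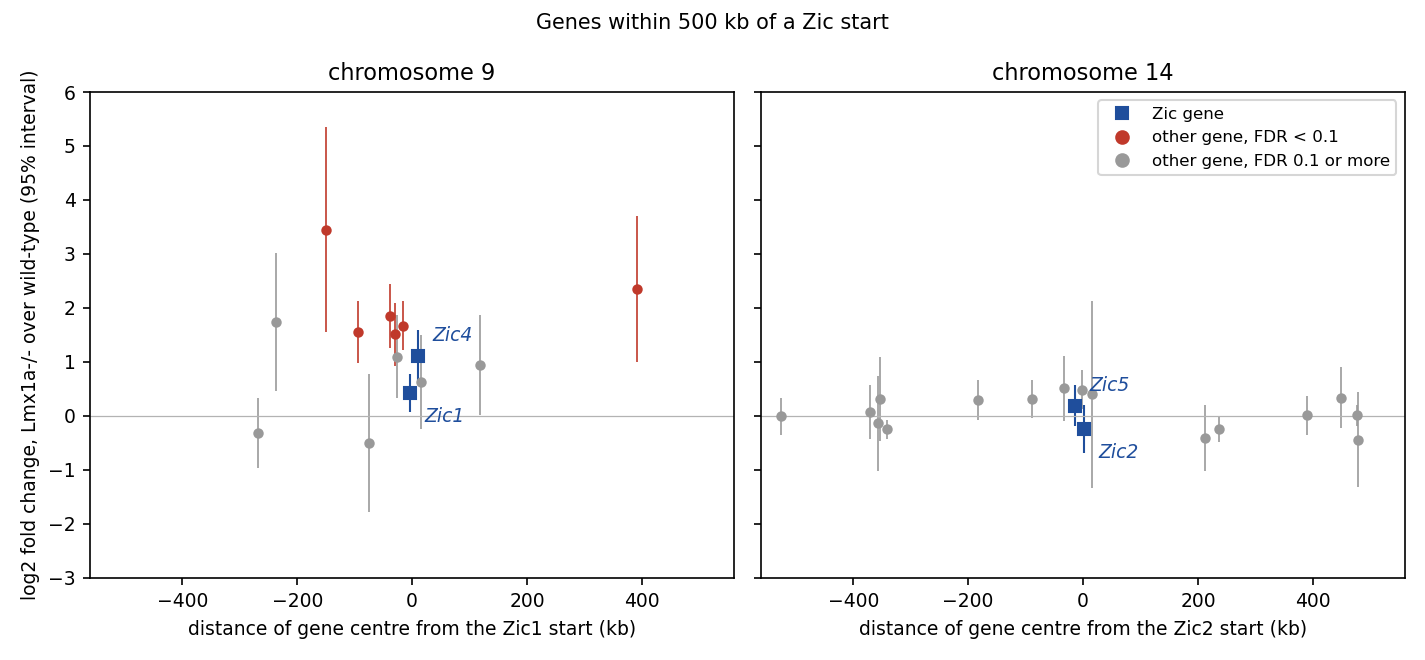
Log2 fold change, Lmx1a-/- over wild-type (y axis, with 95% intervals), of the Zic genes and of every tested gene within 500 kb of a Zic start, against the distance of the gene's centre from the start of Zic1 or Zic2 in kb (x axis). The 6 red points, called at an FDR under 0.1, are all on chromosome 9, and the 16 gray points of chromosome 14 lie between -0.44 and 0.51.

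How the members varied among embryos of the same genotype was read from levels centered on the mean of each genotype, over 10 libraries. Zic1 and Zic2, which lie on different chromosomes, varied together (Pearson's r = 0.94, Spearman's rho = 0.84, exact permutation p = 0.00146 and 0.00576, adjusted p of r = 0.00875 over 6 pairs). Without the 2 embryos farthest from the median of Zic1, wild-type embryo 3 and Lmx1a-/- embryo 5, r was 0.87. Zic4 and Zic5 varied together as well (r = 0.83, rho = 0.84, exact permutation p = 0.0128 and 0.00917, adjusted p of r = 0.0385), with r = 0.78 without wild-type embryos 2 and 3. Leaving out 1 embryo at a time gave r between 0.7 and 0.89 for this pair, past the threshold of 0.05 in 5 of 10 cases. Lost cases were those without wild-type embryo 3 (adjusted p = 0.128, exact) or 4 (0.0635) and those without Lmx1a-/- embryo 1 (0.0552), 2 (0.0521) or 4 (0.0917).

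The genes of a head-to-head pair were less alike by this measure, with r = 0.67 for Zic1 and Zic4 (rho = 0.73, exact permutation p = 0.0583 and 0.0367, adjusted p of r = 0.117) and r = 0.48 for Zic2 and Zic5 (rho = 0.41, exact permutation p = 0.179 and 0.279, adjusted p of r = 0.179). Without the 2 farthest embryos these were 0.42 and 0.35. The other pairs had r = 0.63 (Zic1 and Zic5) and 0.52 (Zic4 and Zic2), with adjusted exact permutation p of 0.173 and 0.178. Differences between these correlations were not tested. Among 11548 genes with a mean of at least 5 normalized CPM, those most like Zic1 by centered r were Mib1, a ubiquitin ligase of Notch signaling (0.943), Zic2 (0.938) and the chaperone gene Canx (0.934). Zic4 was most like Wdr78 (0.967), Slc16a10 (0.961) and Mtcl1 (0.956), Zic2 like Epm2aip1 (0.968), Tinf2 (0.959) and Ppm1k (0.957), and Zic5 like Gm47483 (0.968), Jam3 (0.961) and Flrt2 (0.951). All these values share the same 10 libraries and their scaling. They were picked from the top of 11548 values per member, and how high such values run by chance was not tested.

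**Figure D5:**
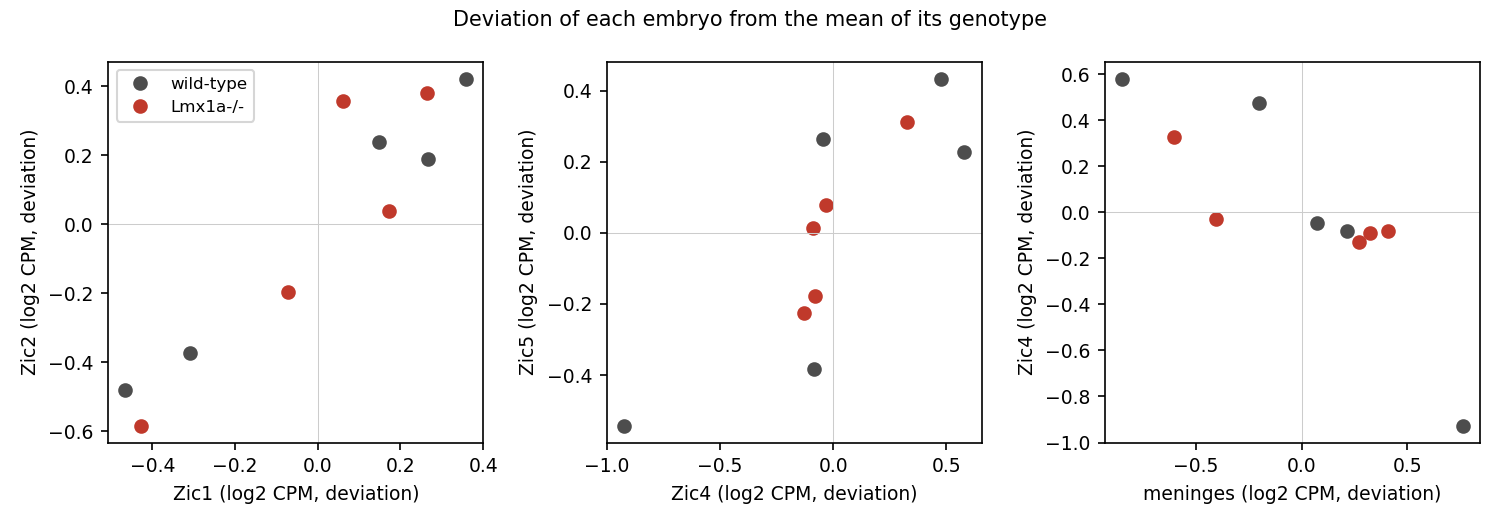
Deviation of each embryo from the mean of its genotype on the log2 CPM scale, for Zic2 against Zic1, Zic5 against Zic4, and Zic4 against the summed CPM of 13 meningeal and mesenchymal markers, with 1 point per embryo and genotypes by color. Points rise together in the first (r = 0.94) and second (r = 0.83) panel and fall in the third (r = -0.85), where wild-type embryo 3 is the lowest point.

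Captured CH can hold other tissues that make Zic transcripts or border on the CH, so the summed levels of marker lists were set beside the Zic levels. Counts of called markers stand beside 1.72% of all genes tested called higher and 2.29% called lower. The 13 markers of meninges and mesenchyme, led by Col1a2, Col1a1 and Col3a1, summed to 300 to 919 normalized CPM in wild-type and 249 to 502 in Lmx1a-/- embryos, none was at 0 in every library, and 2 of 13 were called, both lower (Dcn and Lum). Wild-type embryo 3 had the highest sum of these markers (919) and, of the wild-type embryos, the lowest Zic1, Zic4, Zic2 and Zic5. Of 40 relations between the 4 Zic genes and 10 marker lists, chosen after seeing the data and centered on genotype, that of Zic4 with this list passed adjustment (r = -0.85, rho = -0.88, exact permutation p = 0.000556 and 0.00271, adjusted p of r = 0.0222, r = -0.77 without wild-type embryo 2 and Lmx1a-/- embryo 4). With the mean of these markers as a covariate, the log2 fold change of Zic4 was 1.12 (FDR 0.00615).

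The other lists moved with the Zic genes to differing degrees, and their counts of called markers stand beside the same 1.72% and 2.29% of all genes. The 10 CR cell markers, led by Reln, Trp73 and Ebf3, summed to 335 to 546 in wild-type and 223 to 317 in Lmx1a-/- embryos without overlap, and 5 of 9 tested were called, 4 lower and 1 higher. Within genotypes their sum ran with Zic1 (r = 0.89, rho = 0.83, exact permutation p = 0.00674 and 0.0144, 0.93 without 2 embryos) and Zic2 (r = 0.89, rho = 0.76, exact permutation p = 0.00569 and 0.0187, 0.90 without 2), with an adjusted p of 0.0899 for both, which did not pass. The list holds genes that the study picked from these libraries. The 14 choroid plexus markers, led by Otx2, Clic6 and Ttr, summed to 132 to 486 in wild-type and 150 to 230 in Lmx1a-/- embryos, and 3 of 12 tested were called, all lower (Ttr, Calml4 and Slc4a5, median log2 fold change of the list -1.23). Within genotypes their sum ran with Zic4 (r = 0.87, rho = 0.71, exact permutation p = 0.0224 and 0.0403), which did not pass adjustment (adjusted p of r = 0.136, exact) and was r = 0.45 without wild-type embryos 2 and 3. Wild-type embryo 3 had fewer of these transcripts than any Lmx1a-/- embryo (132), and its Zic4 level (48.1) was the lowest of all. With the mean of this list as a covariate, the log2 fold change of Zic4 was 1.73 but its FDR was 0.163, and the covariate itself had a correlation of -0.786 with genotype. Septal markers, led by Six3, summed to 8.53 to 43.8 in wild-type and 22.6 to 85.7 in Lmx1a-/- embryos, with 1 of 5 called (Six3, higher). Thalamic eminence markers, led by Lhx9, summed to 37.5 to 99.3 and 47.6 to 107, with 0 of 5 called. Markers of the cortical neuroepithelium, led by Lhx2, summed to 525 to 963 and 909 to 1200, with 3 of 9 called higher. Neurons, endothelium, red blood cells and microglia had sums of 879 to 1380, 97.3 to 205, 632 to 1470 and 13.6 to 32.0 in wild-type and of 986 to 1500, 52.6 to 108, 267 to 573 and 14.8 to 30.3 in Lmx1a-/- embryos. The sums of red blood cells did not overlap, with 0 of 8 called. Of the endothelial markers 1 of 8 was called, Kdr (lower), which leads that sum and is a CH marker in the study. Of neurons 0 of 10 and of microglia 0 of 7 were called. No marker of these lists was at 0 in every library, and the part of these tissues in the Zic results was not tested further.

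Sex was almost wholly bound up with genotype. Xist, the transcript of the inactive X chromosome, stood at 4400 to 5170 normalized CPM in wild-type embryos 2 to 5, at 1.01 in wild-type embryo 1 and at 0.163 to 1.15 in all Lmx1a-/- embryos. The Y-linked gene Ddx3y stood at 0 to 0.0588 in wild-type embryos 2 to 5, at 65.6 in wild-type embryo 1 and at 72.5 to 84.3 in Lmx1a-/- embryos. By these transcripts all Lmx1a-/- embryos were male, as was wild-type embryo 1 alone of its genotype. Sex and genotype can therefore hardly be told apart here. Wild-type embryo 1, the wild-type embryo without Xist, had 89.0 normalized CPM of Zic4, inside the range of the other wild-type embryos and below all 5 Lmx1a-/- embryos. Its level of A730094K22Rik (7.47) likewise lay inside the wild-type range. With the Xist level as a covariate, which had a correlation of -0.83 with genotype, the log2 fold change of Zic4 was 1.26 with an FDR of 0.384, and across all genes 25 were called in place of 870 (1 higher and 24 lower).

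The targeted gene and its setting were read from the same counts. Lmx1a transcripts were still counted in embryos homozygous for drJ. Lmx1a stood at 79.8, 80.0, 45.6, 59.7 and 90.8 normalized CPM in wild-type and at 89.9, 102, 122, 145 and 111 in Lmx1a-/- embryos (log2 fold change 0.68, SE 0.17, FDR 0.0658), so its level does not check the genotype labels. Of 24 CH and roof plate genes, 2 were called higher and 7 lower, beside 1.72% and 2.29% of all genes tested, with a median log2 fold change of -0.38 beside -0.005 over all genes. The 6 with the smallest p were Wnt2b (-1.02), a Wnt ligand of the CH, Msx1 (-2.11), a homeobox target of Bmp signaling, Bmp7 (-0.91), Emx2 (0.65), a cortical and hippocampal homeobox gene, Wnt9a (-0.88) and Ttr (-3.42), a choroid plexus carrier of thyroid hormone. Zic4 was thus higher in libraries in which 7 of these 24 genes were called lower, 2 (Lmx1a and Emx2) higher and 15 in neither direction.

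Among the 6 Gli and Glis genes, the zinc finger relatives of the Zic family, Gli3 alone was called, beside 4.02% of all genes tested. Gli3, which encodes the chief repressor form of the Hedgehog pathway and is needed for CH formation, stood at 424, 472, 443, 407 and 482 normalized CPM in wild-type and at 622, 648, 608, 626 and 505 in Lmx1a-/- embryos. All Lmx1a-/- embryos were above all wild-type embryos (log2 fold change 0.43, SE 0.08, FDR 0.012). The point estimate equals that of Zic1 (0.43), whose SE was 0.16. Gli1 (-0.76), a target of Hedgehog signaling, Gli2 (-0.20), Glis1 (-1.27), Glis2 (-0.22) and Glis3 (-0.78) had negative values that did not pass (FDR 0.177 to 0.458), and DESeq2 called Glis3.

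Genes whose products bind or modify Zic proteins, or that Zic proteins are known to control, were taken as a list of 14, of which 12 were tested. By edgeR's quasi-likelihood test 0 of 12 were called, beside 4.02% of all genes tested, with a median log2 fold change of -0.07. In that test 2 of 12 had an unadjusted p under 0.05, beside 1660 higher and 1885 lower of all 21664 genes. DESeq2 called the same 2. The 2 were Pax3, a dorsal neural tube and neural crest gene (log2 fold change -2.82, SE 0.88, FDR 0.125), and Kpna6, an importin that carries proteins into the nucleus (-0.27, SE 0.10, FDR 0.168). Pax3 rested on wild-type embryo 4, at 49.5 normalized CPM, while the other wild-type embryos had 1.44 to 5.68 and the Lmx1a-/- embryos 0.465 to 3.99. Ephb1, a guidance receptor under Zic2 in retinal axons, stood at 64.3 ± 23.3 in wild-type and 88.7 ± 19.1 in Lmx1a-/- embryos (log2 fold change 0.46, SE 0.24, FDR 0.355). The partners Tcf7l2 (-0.06), Rnf180 (0.08), Prkdc (0.12), Kpna2 (-0.08) and Mdfi (0.36), and the further targets Apoe (-0.33), Snai2 (-0.64), Foxd3 (0.47) and Slc6a4 (-1.14) did not pass. Atoh1 and Drd1 were too low to be tested.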

How the data were processed

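According to the study's methods, the authors used Trimmomatic to trim the read pairs, STAR 2.7.1a for alignment to GRCm38 and HTSeq 0.11.2 for raw counts per Ensembl gene. RNA was treated with DNase. The values deposited are these counts. The table has 52508 rows, all naming a gene. Exact repeats (281) were dropped, which left 52227 genes, and 0 further columns were left unused. Depth was 19145952 to 36462780 counts per library, and all counts cover counting error of amplified reads.

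The 21664 genes that reached 10 counts in 3 or more libraries were compared between genotypes with edgeR 4.0.16 (R 4.3.3) using TMM scaling and the quasi-likelihood test, with Benjamini-Hochberg adjustment and an FDR under 0.1 as the threshold. The SE is the log2 fold change divided by the square root of F, and 95% intervals use the t distribution with the degrees of freedom of the test. Fold changes of groups come from 5 libraries each, and each library is 1 embryo. Ratios within a library used log2 of counts plus 0.5 and a two-sided exact permutation test over embryos. Correlations used log2 normalized CPM plus 0.5, with embryos permuted exactly within genotypes (14400 arrangements) and a threshold of 0.05. Positions and exons come from GENCODE M21 (GRCm38), and promoters from RefSeq (GRCm38.p6), which gave entries for 3 of the 4 Zic genes.

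The members, lists, tests and alternatives were chosen with earlier results of these data known. The genes named are the Zic genes, tested genes within 500 kb of their starts, the Gli and Glis genes, Zic partners and targets, the 6 CH and roof plate genes with the smallest p, the 3 most correlated genes per member, and the 3 most abundant genes of a marker list. Not every gene covered by this rule is reported here. The labels do not give the litter of an embryo, and embryos were treated as unpaired. The correlation of deviations of same-numbered embryos was between -0.21 and 0.03, which cannot settle whether the numbers pair the genotypes. Alternatives were the likelihood ratio and exact tests of edgeR, DESeq2 1.42.0, robust dispersions, other scaling and filters, covariates, a block for embryo number, an FDR of 0.05, mitochondrial genes left out, repeated rows kept and each embryo left out. The quasi-likelihood fit was also run on counts simulated with the dispersions of these data and without effects of sex or tissue. The outcome of that run is not reported here.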

Additional observations from a re-analysis of the deposited data

Results flagged for a closer look

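Zic4 in Lmx1a-/- embryo 4 stood at 264 normalized CPM, apart from the other 4 embryos of its genotype (192 to 206). The gap to the nearest embryo was 0.812 of the range, past the 95% critical value of Dixon's test for 5 samples. Over 20 groups checked, chance flags about 1. Without this embryo the log2 fold change of Zic4 was 1.02 with an FDR of 0.0513 in edgeR's quasi-likelihood test.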

How the results depend on the processing

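Zic4 stayed past the threshold in 14 of 16 alternatives, with log2 fold changes of 1.1 to 1.73, and in all 10 fits that left out 1 embryo (0.94 to 1.26, FDR 0.00445 to 0.056). With Xist or the choroid plexus list as a covariate it was 1.26 (FDR 0.384) and 1.73 (FDR 0.163), and the number of Zic genes called was 0. Both covariates are bound up with genotype, and left few calls among all genes. The cause was not tested. Zic1 was not called in any alternative (0.25 to 0.79). Zic2 turned to 0.21 with the choroid plexus covariate, and Zic5 to -0.05 with the Xist covariate, both uncalled.

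With the Xist covariate 0 Gli relatives, 0 CH and roof plate genes in either direction and 0 genes near the Zic genes were called, and with the choroid plexus covariate 0, 0 and 1. DESeq2 called 1 Gli relative, 2 Zic partners or targets and 1 neighboring gene as lower, and the filter of 1 CPM in 5 libraries 1 neighboring gene as lower. The exact test, the likelihood ratio test, the replicate block and the fit without a filter each called 1 Zic partner or target as lower. With an FDR under 0.05, 1 CH and roof plate gene was higher and 4 lower, and with the replicate block likewise 1 and 4. The replicate block gave 1.19 for Zic4 (FDR 0.0261) and 248 genes higher and 353 lower in all, against 373 and 497.

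Leaving out 1 embryo gave 0 to 1 Gli relatives lower, 0 to 1 Zic partners or targets lower, 1 to 2 CH and roof plate genes higher and 3 to 10 lower, 4 to 6 neighboring genes higher and 0 to 1 lower. The ratio of Zic2 to Zic5 ranged from -0.6 to -0.32 and passed without Lmx1a-/- embryo 3 (adjusted p = 0.0286, exact). The ratios of the 4 pairs past the threshold stayed past it in all 10 cases and with a pseudocount of 5. The correlation of Zic1 and Zic4 ranged from 0.43 to 0.74 and passed without Lmx1a-/- embryo 4, and that of Zic4 and Zic5 ranged from 0.7 to 0.89 and was 0.81 with library size scaling (adjusted p = 0.0994, exact). With 5 embryos a genotype, 95% intervals of Zic2 and Zic5 reached 0.625-fold and 1.48-fold, so changes of these genes within their intervals are not excluded.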
